A study of Homo sapiens with 12 samples.

Results

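The MYC, MAX and MXD network was described at the mRNA level in prostate cancer cells treated with an AKT inhibitor, an EZH2 inhibitor or both. Its 10 members were chosen by gene name: MYC, MYCN, MYCL, MAX, MXD1, MXI1, MXD3, MXD4, MNT and MGA. Each matched 1 of the 58735 genes counted on hg38. They lie on chromosomes 8 (MYC), 2 (MYCN and MXD1), 1 (MYCL), 14 (MAX), 10 (MXI1), 5 (MXD3), 4 (MXD4), 17 (MNT) and 15 (MGA). C4.2B is a castration-resistant prostate cancer cell line derived from LNCaP cells, and every arm was this 1 line. RNA-seq was performed on 4 arms with 3 libraries each, named A, B and C. Cells of the DMSO arm received vehicle throughout. The AKTi arm (IPATA in the labels) was kept in DMSO and then given 0.25 µM ipatasertib for 24 hours. The EZH2i arm (TAZ) was pretreated with 1 µM tazemetostat for 6 days and kept in it for the last 24 hours. The combination arm (COMBO) had the same pretreatment and then both agents for 24 hours. In all arms, controls included, cells were seeded at 250000 per 6-cm plate and moved into medium with 10% charcoal-stripped FBS, which is low in androgen, at the start of those 24 hours. The triplicates were plates of 1 cell line, so p-values measure the spread between such plates.

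MYC, MYCN and MYCL are basic helix-loop-helix leucine zipper (bHLHZ) transcription factors that bind DNA as dimers with MAX, at the E-box CACGTG, and activate genes of ribosome production, nucleotide synthesis and metabolism. MXD1, MXI1, MXD3 and MXD4 also dimerize with MAX at E-boxes but recruit the SIN3 corepressor with its histone deacetylases. MNT is a widely expressed repressor of the same kind, and MGA is a large MAX partner that also carries a T-box DNA-binding domain and sits in the Polycomb complex PRC1.6. In prostate cancer MYC is a known driver oncogene, and AKT signaling restrains FOXO factors, for which MXI1 is a textbook target.

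The library totals were 14565714 to 22276417 counts in DMSO, 14133755 to 14815838 in AKTi, 14560651 to 21021563 in EZH2i and 15273647 to 18793827 in the combination. All 10 prostate luminal markers checked were expressed in every library, among them KLK3, which encodes prostate-specific antigen, at 1338 to 3980 CPM (counts scaled by depth to a library of the same nominal size). Summed over these 10 markers, the mean level was 4065 CPM in DMSO, 6209 with AKTi, 6921 with EZH2i and 8880 with the combination. The 6 markers of leukocytes, endothelium, stroma and basal epithelium summed to at most 1.61 CPM in any library, and KRT5 had 0 counts. Their part in the results was not tested.

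The promoters of 4 members are shown because, in the combination against DMSO, MXD4 and MXI1 had the largest increases and MXD3 the largest decrease in the network, and because MXD4 and MNT held the E-box bound by MYC and MAX themselves. The sequences are from RefSeq (GRCh38.p14), run from 250 bases before to 50 bases after 1 annotated transcript start and are written 5′ to 3′ on the gene's strand. Capitals mark CACGTG. The positions are chr4:2262060-2262359 (minus strand) for MXD4, chr17:2401011-2401310 (minus strand) for MNT, chr10:110207355-110207654 (plus strand) for MXI1 and chr5:177312703-177313002 (minus strand) for MXD3.
MXD4: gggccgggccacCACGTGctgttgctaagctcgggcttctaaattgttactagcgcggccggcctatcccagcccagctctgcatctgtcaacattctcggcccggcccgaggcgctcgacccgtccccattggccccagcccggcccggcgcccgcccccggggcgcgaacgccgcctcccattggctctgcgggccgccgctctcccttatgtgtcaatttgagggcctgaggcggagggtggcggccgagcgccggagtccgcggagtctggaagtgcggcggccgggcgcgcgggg
MNT: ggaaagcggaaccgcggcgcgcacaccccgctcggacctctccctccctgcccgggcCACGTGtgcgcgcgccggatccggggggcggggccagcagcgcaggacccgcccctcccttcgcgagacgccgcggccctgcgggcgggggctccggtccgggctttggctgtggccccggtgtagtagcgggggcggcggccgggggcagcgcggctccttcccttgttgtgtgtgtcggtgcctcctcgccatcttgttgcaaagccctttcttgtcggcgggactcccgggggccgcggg
MXI1: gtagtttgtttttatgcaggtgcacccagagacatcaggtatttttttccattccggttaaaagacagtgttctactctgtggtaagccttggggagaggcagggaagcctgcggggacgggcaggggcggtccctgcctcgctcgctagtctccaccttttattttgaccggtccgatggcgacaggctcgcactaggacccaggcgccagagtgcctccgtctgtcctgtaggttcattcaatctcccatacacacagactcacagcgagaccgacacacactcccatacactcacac
MXD3: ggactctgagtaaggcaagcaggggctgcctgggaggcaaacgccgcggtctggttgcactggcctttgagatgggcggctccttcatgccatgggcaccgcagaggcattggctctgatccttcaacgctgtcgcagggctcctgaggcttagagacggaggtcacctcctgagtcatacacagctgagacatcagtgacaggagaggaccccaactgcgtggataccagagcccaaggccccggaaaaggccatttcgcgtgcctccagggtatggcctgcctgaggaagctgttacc
CACGTG, which reads the same on both strands, began at position -238 in MXD4 and at position -193 in MNT, counted from the transcript start. It was thus found in 2 of the 9 members with a promoter entry, all but MYC, and in 8.94% of 14896 protein-coding promoters of the same length. The forkhead motif TGTTTAC and the E2F motif TTTCCCGC, searched on both strands, were in none of the 9 windows and in 2.62% and 2.18% of all promoters. A further E2F motif, TTTGGCGC, was found only in MYCN, against 0.913% of all promoters. These are matches of letters in a short window and no evidence for or against binding.

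Levels of different genes were compared in TPM, that is, counts per kilobase of annotated gene length scaled to the same total in every library. In DMSO, MYC was by far the most abundant member, at 269 ± 14.6 TPM (SD, n = 3), above 96.5% of the genes tested. MAX followed at 46.0 ± 1.91 TPM, MXI1 at 39.8 ± 2.38 and MXD4 at 34.7 ± 0.455. The lower members were MXD3 at 14.7 ± 0.728 TPM, MGA at 11.0 ± 0.171, MNT at 9.21 ± 0.316, MYCL at 5.84 ± 0.654 and MXD1 at 4.63 ± 0.568. The libraries of neighbors in this order did not overlap, although MYCL at its lowest (5.22 TPM) and MXD1 at its highest (5.17 TPM) nearly touched. MYCN, the neuroendocrine and neuroblastoma paralog of MYC, had 0 counts in all 12 libraries, and a count of 0 allows up to 3 counts per library. It was not tested, which leaves 9 members.

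Each arm was compared with edgeR on 16646 genes, at an adjusted p-value below 0.05. With AKTi against DMSO, 5 members were higher and 1 was lower, while 20.6% of all tested genes were higher and 21.9% lower. With EZH2i, 2 members were higher and 3 lower, against 32.6% and 31.5% of all genes. With the combination, 4 were higher and 4 lower, against 38.0% and 35.2%. Nothing particular to the network was read from these counts. With library size alone the EZH2i comparison had 3 members higher and 3 lower, and genes higher made up 61.3% of all called genes in place of 50.8%. The median log2 fold change of the 9 members was 0.28, -0.07 and 0.31 in the 3 comparisons, beside 0.01, 0.03 and 0.06 over all genes. All 3 comparisons share the DMSO libraries. When EZH2i was added to AKTi, 3 members were higher and 3 lower, against 32.1% of all genes in each direction, and when AKTi was added to EZH2i, 3 were higher and 2 lower, against 21.1% and 25.7%. In bulk RNA, fewer cells with a transcript and less of it per cell cannot be told apart.

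MYC mRNA moved in opposite directions with the 2 agents. It stood at 240, 246 and 254 CPM in the 3 DMSO libraries, at 386, 409 and 417 with AKTi, at 94.3, 89.8 and 102 with EZH2i, and at 207, 195 and 192 with the combination. No library of 1 arm overlapped those of another. AKTi raised MYC 1.64-fold (log2 fold change 0.71 ± 0.055 (SE), adjusted p = 3.10e-13). EZH2i lowered it to 0.387 of the DMSO level (-1.37 ± 0.057, adjusted p = 1.78e-21). In the combination MYC was slightly below DMSO, at 0.803 of its level (-0.32 ± 0.055, adjusted p = 3.72e-06). That value depended on scaling: with library size alone it was -0.12 (adjusted p = 0.0445), while the median of all genes in this comparison went from 0.06 to 0.26. Adding AKTi to EZH2i raised MYC 2.07-fold (1.05 ± 0.057, adjusted p = 8.93e-18), and adding EZH2i to AKTi lowered it by 1.03 on the log2 scale (adjusted p = 1.80e-18). The order of the arms, AKTi above DMSO above combination above EZH2i, therefore held between each pair of neighbors.

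**Figure D1:**
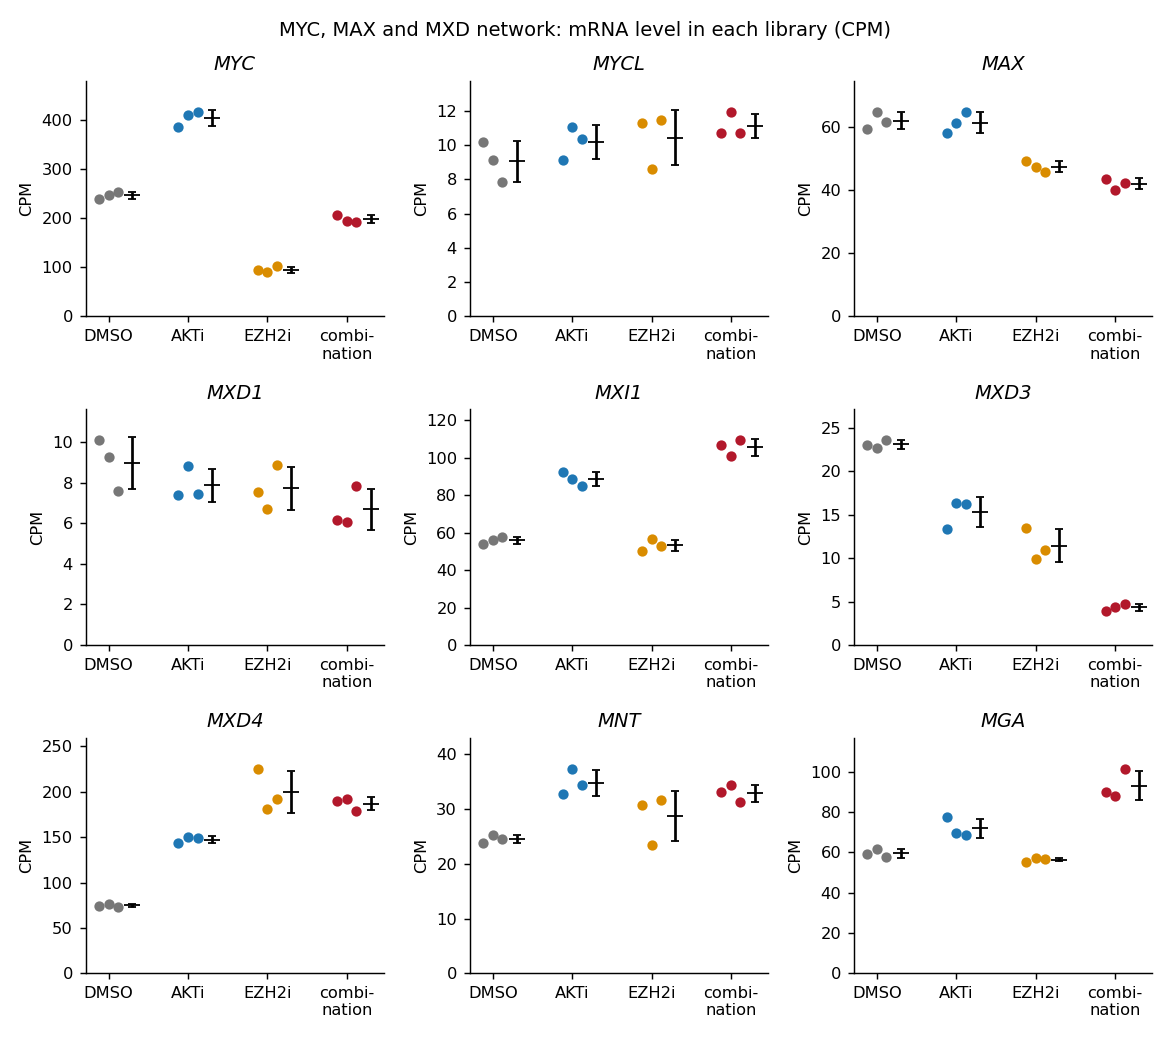
Each panel plots 1 tested network gene, with CPM after TMM scaling on a y axis that starts at 0 and the 4 arms on the x axis. Points are libraries A, B and C, and the black mark is the mean with its SD (n = 3). MYC is highest with AKTi (386 to 417 CPM) and lowest with EZH2i (89.8 to 102 CPM), MXD4 is raised in all 3 treated arms, and MXD3 is lowest in the combination (3.90 to 4.77 CPM).

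MYCL, the least abundant MYC paralog detected, measured 10.2, 9.15 and 7.82 CPM in DMSO and 9.11, 11.1 and 10.4 with AKTi. It measured 11.2, 8.59 and 11.4 CPM with EZH2i and 10.7, 11.9 and 10.7 with the combination. The combination libraries lay above those of DMSO, while the single-agent libraries overlapped DMSO. None of its comparisons passed the test. The closest was the combination against DMSO, at 0.31 with a 95% confidence interval of 0.02 to 0.59 (adjusted p = 0.0513), which passed with library size alone (0.50, adjusted p = 0.00183).

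MAX, the partner shared by all the other members, fell wherever EZH2i was given. Its values were 59.6, 64.9 and 61.9 CPM in DMSO, 58.2, 61.4 and 65.0 with AKTi, 49.4, 47.5 and 45.9 with EZH2i, and 43.7, 40.3 and 42.2 with the combination. The DMSO and AKTi libraries overlapped, and all 6 libraries with EZH2i lay below both. MAX was at 0.766 of DMSO with EZH2i (-0.39 ± 0.069, adjusted p = 7.33e-06) and at 0.678 with the combination (-0.56 ± 0.069, adjusted p = 4.62e-09). With library size alone these values were smaller, -0.24 and -0.36, and still passed. With AKTi alone the difference was -0.01 (95% confidence interval -0.15 to 0.13, adjusted p = 0.899), and 0.05 with library size alone. The step from EZH2i to the combination, -0.18 (adjusted p = 0.0385), was lost in 13 of 19 alternatives. In GENCODE release 44, exons of other genes on the opposite strand, among them FNTB, which encodes a subunit of farnesyltransferase, cover 16.1% of the MAX exon bases. FNTB had 1626 counts over the 12 libraries against 10483 for MAX and passed in none of the 3 comparisons against DMSO (-0.32, -0.30 and -0.19 with AKTi, EZH2i and the combination). Its part in the MAX values was not tested.

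Among the MXD repressors, MXD4 rose in every treated arm. It was at 74.5, 76.5 and 73.4 CPM in DMSO, 143, 150 and 149 with AKTi, 225, 181 and 192 with EZH2i, and 190, 192 and 179 with the combination. All 9 treated libraries lay above DMSO, and those of EZH2i and the combination overlapped. The increase was 1.97-fold with AKTi (0.98 ± 0.065, adjusted p = 7.57e-15), 2.66-fold with EZH2i (1.41 ± 0.065, adjusted p = 2.23e-20) and 2.50-fold with both (1.32 ± 0.065, adjusted p = 4.57e-20). The combination exceeded AKTi by 0.34 (adjusted p = 9.72e-06). Against EZH2i the combination was at -0.09 with an interval of -0.22 to 0.03 (adjusted p = 0.229).

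MXI1, also called MXD2, rose in both arms that received AKTi. Its values were 53.9, 55.8 and 57.8 CPM in DMSO, 92.5, 88.8 and 84.8 with AKTi, 50.4, 56.4 and 52.8 with EZH2i, and 107, 101 and 109 with the combination. The combination libraries were the highest, those of AKTi came next, and DMSO and EZH2i overlapped. MXI1 rose 1.59-fold with AKTi (0.67 ± 0.065, adjusted p = 1.13e-10) and 1.89-fold with the combination (0.92 ± 0.064, adjusted p = 1.53e-15). With EZH2i alone the difference was -0.07 (interval -0.21 to 0.06, adjusted p = 0.354), and 0.07 with library size alone. EZH2i added to AKTi gave a further 0.25 (adjusted p = 0.000608), or 0.39 with library size alone.

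MXD3, an MXD protein known from proliferating cells in S phase, moved the other way. It fell from 23.1, 22.6 and 23.6 CPM in DMSO to 13.4, 16.4 and 16.3 with AKTi, 13.5, 9.94 and 10.9 with EZH2i, and 3.90, 4.32 and 4.77 with the combination. The DMSO libraries were all above, and the combination libraries all below, every other library, while AKTi and EZH2i touched at 13.4 and 13.5 CPM and were not tested against each other. MXD3 was at 0.664 of DMSO with AKTi (-0.59 ± 0.12, adjusted p = 0.000117), at 0.493 with EZH2i (-1.02 ± 0.12, adjusted p = 3.09e-09) and at 0.187 with both (-2.42 ± 0.14, adjusted p = 3.94e-18). It was the largest change of any member.

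The MXD3 counts carry an uncertainty of their own, because exons of neighboring genes cover 43.7% of its exon bases in GENCODE release 44, 24.2% on the opposite strand by PRELID1 and 19.5% on the same strand by RAB24. PRELID1, a mitochondrial lipid transfer protein gene with 25306 counts over the 12 libraries against 2635 for MXD3, was at -0.35 with AKTi, -1.16 with EZH2i and -1.67 with the combination. RAB24 was at 0.28 (adjusted p = 0.0971), 0.11 (adjusted p = 0.503) and 1.02 (adjusted p = 7.26e-09). The strand setting of the counting was not given in the sources used here, and the part of these neighbors in the MXD3 values was not tested.

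MXD1, the founding MXD member and a differentiation-associated repressor, was low and changed little. It measured 10.1, 9.29 and 7.58 CPM in DMSO, 7.38, 8.83 and 7.44 with AKTi, 7.57, 6.72 and 8.87 with EZH2i, and 6.18, 6.05 and 7.85 with the combination. The libraries of all 4 arms overlapped. It passed the test only in the combination against DMSO, at -0.42 ± 0.16 (adjusted p = 0.0186). That call was lost with library size alone (-0.22), with upper quartile scaling (-0.23), and without DMSO library A (-0.33), combination library A (-0.37) or combination library B (-0.36). SNRNP27, a spliceosome gene that covers 3.73% of the MXD1 exon bases on the same strand, was at -0.67 (adjusted p = 4.27e-06) in this comparison.

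MNT rose with AKTi and with the combination. It measured 23.8, 25.3 and 24.5 CPM in DMSO, 32.7, 37.3 and 34.3 with AKTi, 30.8, 23.4 and 31.7 with EZH2i, and 33.0, 34.4 and 31.2 with the combination. Libraries with AKTi or both agents lay above DMSO, whereas EZH2i library B lay below it. The increase was 1.42-fold with AKTi (0.50 ± 0.097, adjusted p = 5.01e-05) and 1.34-fold with the combination (0.42 ± 0.096, adjusted p = 0.000177). With EZH2i it was 0.22 ± 0.097 (adjusted p = 0.0409), a call lost in 11 of 19 alternatives. Without EZH2i library C the difference was 0.10 (adjusted p = 0.446).

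MGA followed the same order as MXI1. Its values were 59.0, 61.9 and 57.5 CPM in DMSO, 77.5, 69.8 and 68.8 with AKTi, 55.4, 57.3 and 56.7 with EZH2i, and 89.8, 88.1 and 102 with the combination. The combination libraries lay above those of AKTi, which lay above all DMSO and EZH2i libraries, and 57.5 CPM in DMSO library C nearly equaled the highest EZH2i library. MGA rose 1.21-fold with AKTi (0.28 ± 0.068, adjusted p = 0.00104) and 1.57-fold with the combination (0.65 ± 0.067, adjusted p = 6.10e-11). With EZH2i alone it was at -0.07 (interval -0.21 to 0.07, adjusted p = 0.365), and at 0.07 with library size alone. EZH2i added to AKTi raised it by 0.37 (adjusted p = 7.96e-06).

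**Figure D2:**
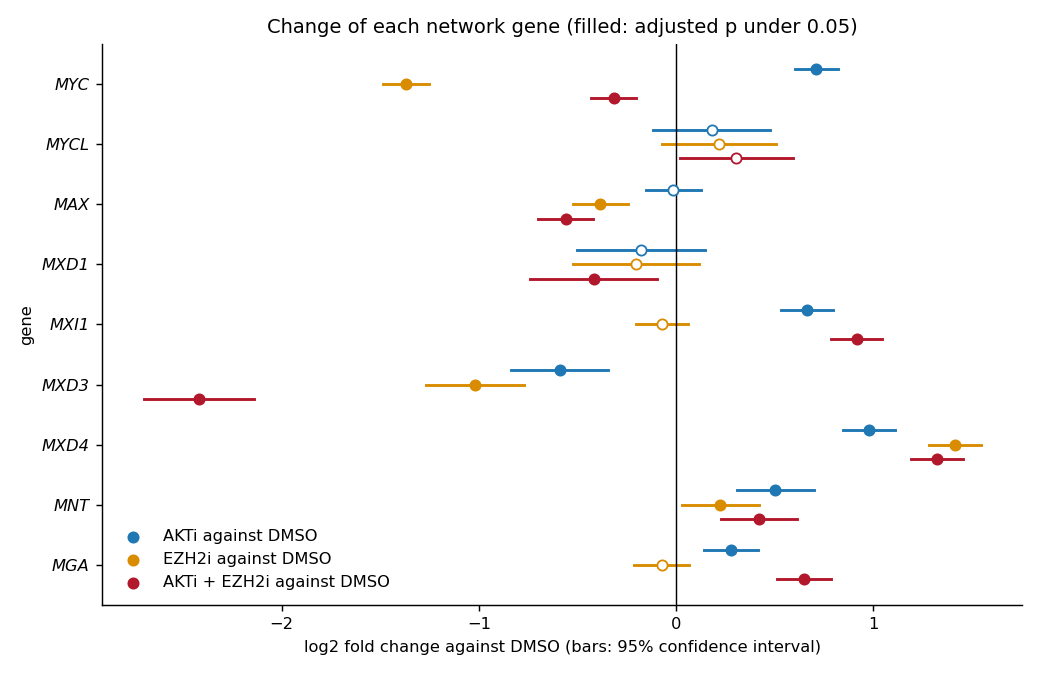
The x axis is the log2 fold change against DMSO from edgeR and the y axis lists the 9 tested network genes, with the AKTi, EZH2i and combination arms in blue, orange and red. Points are estimates, bars are 95% confidence intervals, and filled points have an adjusted p below 0.05. MYC lies to the right of 0 with AKTi (0.71) and to the left with EZH2i (-1.37), MXD4 to the right in all 3 comparisons, and MXD3 to the left in all 3.

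To ask whether the agents acted on each member independently, the effect of AKTi in the presence of EZH2i was compared with its effect alone (interaction, on the log2 scale). Of the 9 members, 3 had a higher and 2 a lower value than the sum of the single agents, against 10.7% and 17.5% of all tested genes. MXD4 rose less than the sum, by -1.07 ± 0.090 (adjusted p = 8.11e-12): AKTi raised it by 0.98 alone and changed it by -0.09 after EZH2i. MXD3 fell more than the sum, by -0.81 ± 0.19 (adjusted p = 0.00110). AKTi lowered it by 0.59 on the log2 scale alone, and its change after EZH2i was -1.40 (adjusted p = 2.48e-10).

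On this log2 scale, MYC, MXI1 and MGA gained more from AKTi after EZH2i than without it. In CPM this did not hold for MYC, which went from 247 to 404 with AKTi alone and from 95.4 to 198 after EZH2i. The excess on the log2 scale was 0.34 ± 0.079 for MYC (adjusted p = 0.00104), 0.32 ± 0.091 for MXI1 (adjusted p = 0.00617) and 0.44 ± 0.095 for MGA (adjusted p = 0.000444). AKTi thus changed MGA by 0.72 after EZH2i and by 0.28 alone. For MNT the interaction was -0.31 (adjusted p = 0.0858), for MAX -0.16 (adjusted p = 0.234), for MYCL -0.09 (adjusted p = 0.788) and for MXD1 -0.04 (adjusted p = 0.935), none of which passed.

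**Figure D3:**
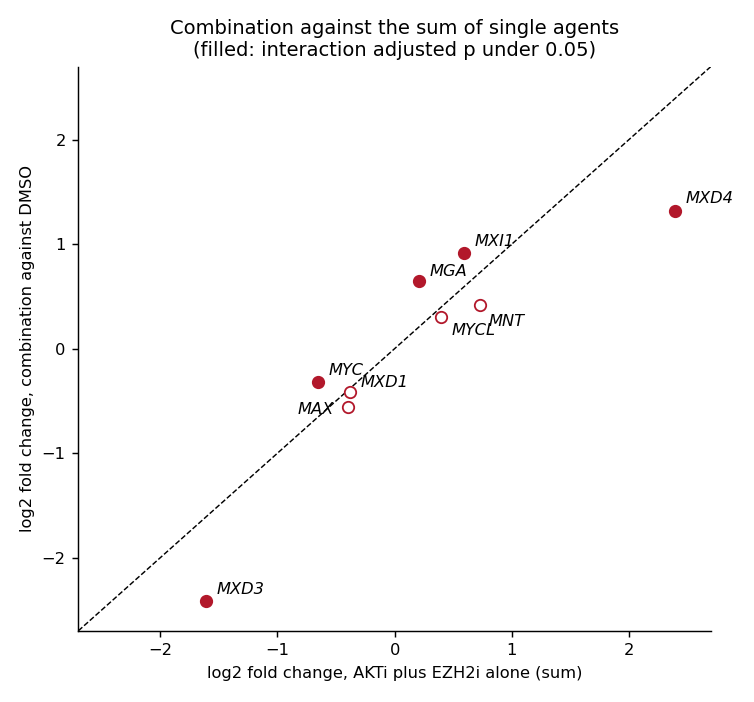
The x axis is the sum of the log2 fold changes of AKTi and EZH2i alone against DMSO, the y axis is the log2 fold change of the combination against DMSO, and the dashed line marks equality. Each point is 1 network gene, filled where the interaction has an adjusted p below 0.05. MXD4 lies 1.07 below the line and MXD3 0.81 below it, while MGA (0.44), MYC (0.34) and MXI1 (0.32) lie above.

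Adding up the members by role gave different totals in each arm. The summed level of MYC and MYCL was 275 ± 14.1 TPM in DMSO, 461 ± 15.2 with AKTi, 121 ± 11.3 with EZH2i and 257 ± 5.57 with the combination (SD, n = 3). The summed level of MXD1, MXI1, MXD3, MXD4 and MNT was 103 ± 3.19, 163 ± 1.32, 166 ± 10.4 and 208 ± 3.70 TPM in the same order. Both sums were higher with AKTi than in DMSO. With EZH2i the activator sum was lower and the repressor sum higher. TPM carry no TMM scaling, so these sums are not on the scale of the tested values. MYC went from 269 TPM in DMSO to 249 in the combination, but from 247 to 198 CPM.

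Per library, the ratio of the activator to the repressor sum was 2.64 to 2.73 in DMSO and 2.73 to 2.95 with AKTi, ranges that overlapped. It was 0.67 to 0.79 with EZH2i and 1.20 to 1.28 with the combination, apart from each other and from both arms without EZH2i. With EZH2i alone the repressor transcripts thus outnumbered those of MYC and MYCL in every library. MXD4 made up 33.7% of the repressor sum in DMSO, 43.2% with AKTi, 60.6% with EZH2i and 48.1% with the combination. The activator sum was mostly MYC, at 269 of 275 TPM in DMSO and 114 of 121 with EZH2i. The ratio was not tested and describes mRNA only. Another measure did not weight the genes by abundance. Each gene's log2 CPM was taken relative to its own DMSO mean, and the repressor median was subtracted from the activator median. Against DMSO this difference moved by -0.05 with AKTi, -0.50 with EZH2i and -0.42 with the combination. The log2 ratio of the sums moved by 0.08, -1.88 and -1.11. A median ignores how far the outermost genes moved, such as MXD4 with EZH2i.

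**Figure D4:**
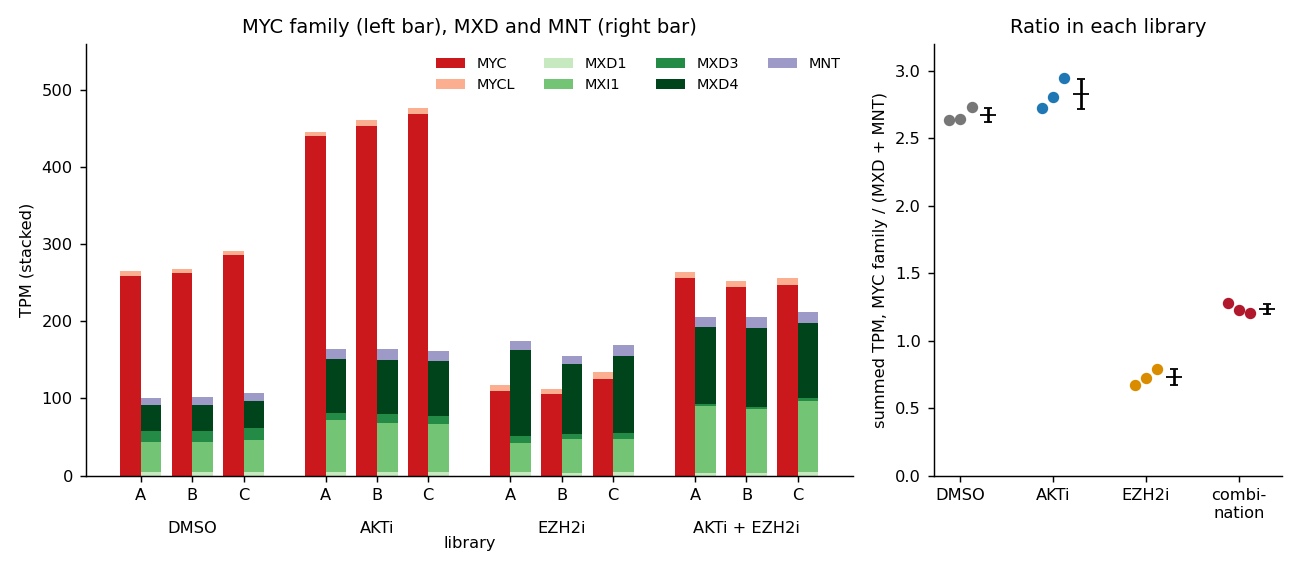
The left panel stacks TPM for each library, with MYC and MYCL in the left bar and MXD1, MXI1, MXD3, MXD4 and MNT in the right bar. The right panel plots the ratio of these sums per library, with the mean and SD (n = 3) as a black mark. The ratio is 2.64 to 2.95 in the libraries without EZH2i, 1.20 to 1.28 with the combination and below 0.80 with EZH2i alone.

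Genes that MYC is known to activate were mostly lower in every treated arm, also where MYC mRNA was higher. Of 20 such genes, 19 were tested, all but CCND2. With AKTi, where MYC rose 1.64-fold, 15 of the 19 were lower and none was higher, with a median of -0.36, while 21.9% of all tested genes were lower and their median was 0.01. With EZH2i all 19 were lower, with a median of -1.17, against 31.5% of all genes and a median of 0.03. With the combination all 19 were lower, with a median of -1.40, against 35.2% of all genes and a median of 0.06, and MYC itself was at 0.803 of DMSO. When AKTi was added to EZH2i, MYC rose 2.07-fold while 13 of the 19 were lower and 2 higher (median -0.48), against 25.7% and 21.1% of all genes (median -0.01). This list was written with earlier results of these data known, so its direction is not independent evidence.

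Named by their rank in the combination were TERT, the catalytic subunit of telomerase, and TFRC, the transferrin receptor. TFRC fell from 1078 ± 37.6 CPM in DMSO to 709 ± 30.6 with AKTi, 350 ± 28.6 with EZH2i and 113 ± 4.30 with the combination (-3.25, adjusted p = 2.07e-32). TERT was at 5.87 ± 0.571 CPM in DMSO, 5.39 ± 0.649 with AKTi, 0.671 ± 0.244 with EZH2i and 0.122 ± 0.161 with the combination, the last of which rests on so few counts that no fold change is given (with EZH2i -3.09, adjusted p = 6.80e-11). At the other end of the list in the combination were SHMT2, a mitochondrial serine enzyme, at -0.36 (adjusted p = 1.07e-07), and the DNA repair enzyme APEX1 at -0.49 (adjusted p = 1.70e-10).

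Of 9 genes that MYC is known to repress, 4 were higher and 2 lower with AKTi (median -0.09), 7 higher with EZH2i (median 1.23), and 7 higher and 1 lower with the combination (median 1.26). Over all tested genes, 20.6% were higher and 21.9% lower with AKTi, 32.6% higher with EZH2i, and 38.0% higher and 35.2% lower with the combination. THBS1, an antiangiogenic matrix protein, rose from 36.7 ± 3.30 CPM in DMSO to 45.5 ± 3.14 with AKTi, 458 ± 17.0 with EZH2i and 671 ± 18.2 with the combination (4.19, adjusted p = 1.29e-34). CDKN1C, which encodes the cell cycle inhibitor p57, rose by 3.85 (adjusted p = 2.62e-18) from 1.04 ± 0.384 CPM to 14.8 ± 1.64. CEBPA, a differentiation factor, was the 1 gene lower with the combination, at -0.65 (adjusted p = 4.66e-07), and among the called genes the cell cycle inhibitor gene CDKN1B came next, at 0.31 (adjusted p = 1.19e-05).

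**Figure D5:**
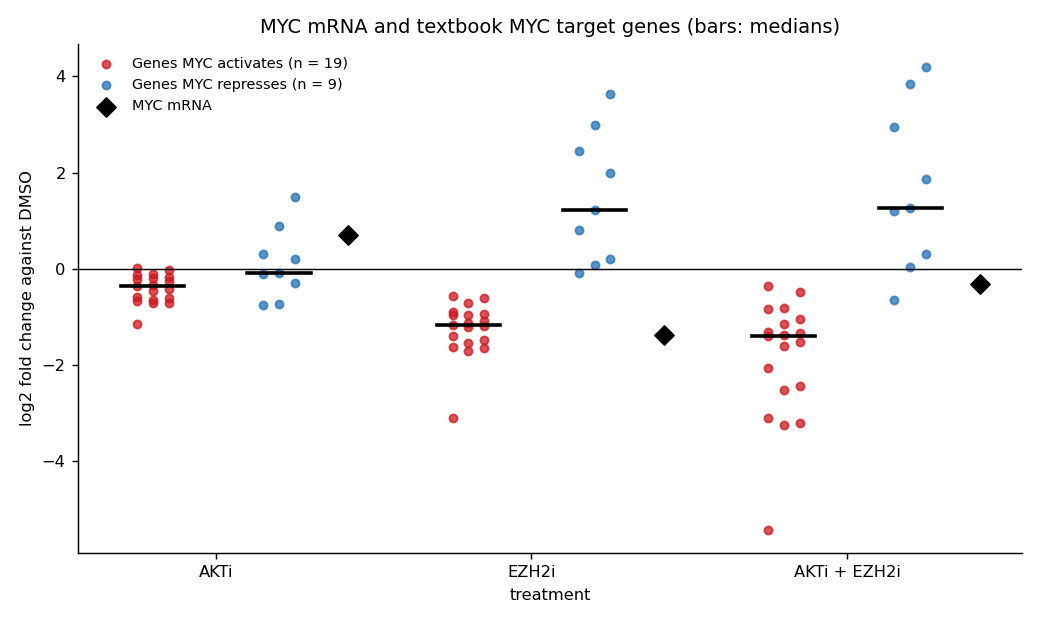
The y axis is the log2 fold change against DMSO for the 3 treated arms on the x axis. Red points are 19 genes that MYC activates, blue points 9 genes that it represses, black bars their medians and diamonds MYC mRNA itself. With AKTi MYC is at 0.71 while the median of the activated genes is -0.36, and in both arms with EZH2i all 19 activated genes lie below 0.

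Genes encoding the cofactors of the network changed in both directions. Their counts, and those of the lists after them, stand beside 20.6% of all tested genes higher and 21.9% lower with AKTi (median 0.01), 32.6% and 31.5% with EZH2i (median 0.03), and 38.0% and 35.2% with the combination (median 0.06). Of 10 MYC cofactors, 3 rose and 6 fell with the combination (median -0.78), and the number that rose was near the share of all genes higher, 38.0%. The largest falls were in the AAA ATPases RUVBL1 (-1.95, adjusted p = 3.13e-27) and RUVBL2 (-1.53, adjusted p = 1.57e-22). The histone acetyltransferase KAT5 rose by 0.54 (adjusted p = 2.55e-05) and the scaffold TRRAP by 0.33 (adjusted p = 5.26e-06). With AKTi 2 rose and 4 fell (median 0.04), and with EZH2i 2 rose and 5 fell (median -0.45).

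The 17 genes of the SIN3 corepressor, which MXD proteins and MNT recruit, showed 3 higher and 12 lower with the combination (median -0.36), against 38.0% and 35.2% of all genes. RBBP7, a histone-binding subunit, fell by 1.18 on the log2 scale (adjusted p = 3.45e-20) and the deacetylase HDAC1 fell by 0.81 (adjusted p = 1.68e-15). SAP30L rose by 0.83 (adjusted p = 1.69e-08) and ARID4B by 0.63 (adjusted p = 1.42e-08). With AKTi 3 were higher and 8 lower (median -0.16), and with EZH2i 2 were higher and 9 lower (median -0.16).

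Of the 9 PRC1.6 subunits that work with MGA, 3 rose and 6 fell with the combination (median -0.69), where MGA itself rose, against 38.0% and 35.2% of all genes. The E2F dimerization partner TFDP1 fell by 1.64 (adjusted p = 2.19e-23) and the defining subunit PCGF6 fell by 1.11 (adjusted p = 9.34e-09). The ubiquitin ligase RING1 rose by 0.45 (adjusted p = 3.14e-06) and RYBP by 0.33 (adjusted p = 8.60e-05). With AKTi 1 was higher and 7 lower (median -0.35), and with EZH2i 2 were higher and 6 lower (median -0.49). Germline genes that this complex silences were mostly too low to test, with 3 of 11 tested. Among them STAG3, a meiotic cohesin gene, rose by 0.77 with the combination (adjusted p = 0.00878), to 3.45 ± 0.518 CPM from 2.01 ± 0.193. SYCP3, of the synaptonemal complex, fell by 1.67 with EZH2i (adjusted p = 0.000289) and was at -0.70 with the combination (adjusted p = 0.0719). Its levels were low, at 2.87 ± 1.45 CPM in DMSO, where the libraries scattered widely, and 0.904 ± 0.384 with EZH2i. TDRD1, of the piRNA pathway, passed in none of the comparisons against DMSO. With EZH2i, 0 of the 3 were thus higher and 1 lower, and with AKTi none passed.

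MLX is a MAX-like protein through which glucose-sensing factors reach related E-boxes, and MXD1, MXD4 and MNT can also pair with it. MLX fell in all treated arms, from 119 ± 6.26 CPM in DMSO to 85.7 ± 1.36 with AKTi, 62.7 ± 1.41 with EZH2i and 42.9 ± 1.86 with the combination (-1.47, adjusted p = 8.41e-22). TXNIP, a glucose-uptake inhibitor and the best known target of this branch, rose from 102 ± 3.30 CPM to 205 ± 7.71, 388 ± 14.0 and 1408 ± 40.9 in the same order (3.79 in the combination, adjusted p = 5.12e-35). ARRDC4, a related target, rose in the combination (0.82, adjusted p = 5.02e-10) and did not pass with either agent alone. MLXIP, a glucose-sensing partner of MLX, rose by 0.58 (adjusted p = 1.95e-11). Of the 5 genes of the branch, 3 were higher and 1 lower with the combination (median 0.58), against 38.0% and 35.2% of all genes.

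Of 12 genes that control MYC protein turnover, 8 were lower and 3 higher with the combination (median -0.40), against 35.2% and 38.0% of all genes. The largest falls were in AURKA, a mitotic kinase that also stabilizes MYC proteins (-3.31, adjusted p = 1.76e-30), and in CIP2A, an inhibitor of the phosphatase PP2A (-2.98, adjusted p = 4.19e-22). GSK3B, a kinase that marks MYC for degradation, rose by 0.64 (adjusted p = 5.00e-13) and the ubiquitin ligase HUWE1 by 0.32 (adjusted p = 1.84e-06). With AKTi 5 were lower and none higher (median -0.14), and with EZH2i 8 were lower and 2 higher (median -0.36), against 31.5% and 32.6% of all genes. The list holds both genes that stabilize MYC and genes that mark it for degradation, so its counts give no direction for MYC protein. MYC protein was not measured in these libraries.

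Of the other bHLH factors that bind CACGTG, 7 of 8 were tested. In the combination 5 were higher and 1 lower (median 0.40), against 38.0% and 35.2% of all genes, and with EZH2i 5 were higher and none lower (median 0.47), against 32.6% and 31.5%. With AKTi 2 were higher and 1 lower (median 0.17), near the 20.6% and 21.9% of all genes. BHLHE41, a repressor of the circadian clock, rose from 2.46 ± 0.386 CPM in DMSO to 17.0 ± 1.59 with the combination (2.81, adjusted p = 1.82e-17). MITF, the melanocyte factor, rose by 0.58 (adjusted p = 0.000530) and the lysosomal gene regulator TFE3 by 0.29 (adjusted p = 0.000392). USF1 was at -0.32 (adjusted p = 0.000534).

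The genes most like MYC were chosen by the Pearson correlation of log2 CPM over the 12 libraries among 11366 expressed protein-coding genes. They were RASSF3 (r = 0.99), DRAM1 (0.99), TFAP4 (0.98), THAP4 (0.98) and CRTAP (0.98). The 12 points fall into 4 arms and share their depth and scaling, so r is given as a description. TFAP4, which encodes the E-box factor AP-4, measured 33.4 ± 2.32 CPM in DMSO, 48.9 ± 1.97 with AKTi, 15.8 ± 1.78 with EZH2i and 31.8 ± 1.86 with the combination. RASSF3, of the RAS-association domain family, was at 337 ± 4.89, 453 ± 6.40, 191 ± 0.913 and 319 ± 3.50 CPM. Within the network, the most alike pairs were MXI1 with MGA (r = 0.95) and MAX with MXD3 (r = 0.90). The exon overlap of MAX and MXD3 with other genes, given above, was not accounted for in r.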

How the data were processed

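Gene expression was measured by polyA RNA-seq in C4.2B cells, with 12 libraries in 4 arms of 3. Per the labels and the study's methods, the authors aligned reads to hg38 with STAR and made the deposited raw counts per gene with HTSeq, without normalization. Versions, annotation release and strand setting are not given in the sources used here. The authors' DESeq2-normalized values were not used.

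Counts were tested with edgeR 4.0.16 in R 4.3.3 (TMM scaling, filterByExpr with a minimum count of 10 and a minimum total of 15, quasi-likelihood F-test, 1 mean per arm over all 12 libraries, Benjamini-Hochberg adjustment over 16646 genes). CPM are TMM-scaled, and TPM use the deposited gene lengths, which sum all annotated exons. Intervals are at the 95% level. TMM factors ran from 0.929 to 0.937 in DMSO and from 1.05 to 1.09 in the combination. The test was tried on simulated counts in which few genes changed, and only in the combination. That setting differs from these data, so no conclusion about scaling is drawn from it. Replicates differed by more than sampling noise, at a chi-square of 2.53 to 7.50 per gene over 12 pairs.

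Alternatives were library size alone, upper quartile scaling, DESeq2 1.42.0, a replicate block, 2 other filters on low counts, separate fits per comparison, and leaving out each library in turn. The network members and gene lists were chosen with earlier results of these data known. Named genes were all members, the 2 highest and 2 lowest called genes of each list in the combination, and the 5 genes most like MYC, and like MXI1, MXD3 and MXD4, among genes with a mean log2 CPM of at least 1. One gene that this rule names is not reported here.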

Additional observations from a re-analysis of the deposited data

Results flagged for a closer look

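For 5 members the effect of AKTi differed between cells with and without EZH2i, by edgeR's test of the interaction over all 16646 genes, where 10.7% of genes were higher and 17.5% lower than the sum of the single agents. MYC had an interaction of 0.34 on the log2 scale, MXI1 of 0.32 and MGA of 0.44, so their fold response to AKTi was larger after EZH2i. In CPM the MYC step was smaller after EZH2i, from 95.4 to 198, than with AKTi alone, from 247 to 404. On the same log2 scale MXD3 had -0.81, a deeper fall in the combination than the sum of the single agents. MXD4 had -1.07, a smaller rise than the sum. In CPM the AKTi step for MXD3 was no larger after EZH2i, from 11.5 to 4.33, than alone, from 23.1 to 15.3. Each of the 5 kept its direction and its call in all 18 alternatives that could be run for it.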

How the results depend on the processing

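Of 1017 member differences recomputed under the alternatives, 954 kept their direction and their side of the threshold, 29 lost a call, 14 gained one and 20 changed sign, none of them a called difference. Of 54 member results, 38 kept direction and side in every alternative, and the counts of members and of all genes called stayed within 1.5 times throughout. With library size alone the sign changed for MAX with AKTi (0.046), MXI1 (0.074) and MGA (0.073) with EZH2i and MNT in the combination against AKTi (0.055), and with upper quartile scaling for the same 4 (0.045, 0.048, 0.047 and 0.043). In the combination against AKTi, 6544 genes were higher and 4330 lower with library size alone, against 5344 and 5343 with TMM. With only the libraries compared, MAX with AKTi was 0.0010. On leaving out 1 library, signs changed for the interaction of MYCL (range -0.22 to 0.018, above 0 without DMSO C, AKTi B or EZH2i C) and of MXD1 (-0.16 to 0.12, above 0 without DMSO C, AKTi B, EZH2i C, combination A or combination B), for MAX with AKTi (-0.078 to 0.025, above 0 without AKTi A), and for MYCL in the combination against AKTi (-0.0060 to 0.17, below 0 without AKTi A) and against EZH2i (-0.036 to 0.19, below 0 without EZH2i B). The cause was not tested. The log2 ratio of the activator to the repressor sum ranged from 0.052 to 0.108 with AKTi, from -1.94 to -1.82 with EZH2i and from -1.13 to -1.09 with the combination on leaving out 1 library. With the difference of median changes from DMSO, in which abundant genes carry no extra weight, the shift was -0.049, -0.50 and -0.42. Leaving out 1 library gave 6 called members with AKTi, 4 to 5 with EZH2i and 7 to 9 with the combination.

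Library letters did not pair the samples: over 18 pairs of the same letter, deviations from the arm means correlated between -0.058 and 0.069. With the letter as a replicate block, 8 members and 12146 genes were called in the combination against DMSO, and no member call changed. MYCL and MXD1 rest on 124 to 249 and 102 to 193 counts per library, which limits what could be seen for them.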

Other observations

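By the same measure of likeness as for MYC, over 12 libraries in 4 arms and with no test, the genes closest to MXI1 were PRUNE2 (r = 0.99), ENTPD5 (0.98), MARCH6 (0.97), NDUFA4L2 (0.97) and FOLH1 (0.97), the last of which encodes prostate-specific membrane antigen. Among those closest to MXD4 were ARVCF (0.99), ACSS1 (0.99), PTPRF (0.99) and MAN1B1 (0.99). Closest to MXD3 were PSMC4 (0.996), LSM4 (0.99), PGP (0.99), PSMB5 (0.99) and PFN1 (0.99), where PSMC4 and PSMB5 encode proteasome subunits. The MXD3 counts may hold reads of the overlapping gene PRELID1, which was at -0.35, -1.16 and -1.67 with AKTi, EZH2i and the combination. The part of PRELID1 in these r values was not tested. MXI1 and MXD3, both MXD genes, had r = -0.67 with each other, and MXD4 with MAX had r = -0.72.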
